A study of Mus musculus with 32 samples.

Results

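The 6 genes described here, Stc1, Cbfa2t3, Rgl3, Ptprk, Necab1 and Sema7a, were selected on measured values, as named genes among the largest falls after dexamethasone (dex) in S49 (Bcl-2) cells, out of 24538 genes in the table. The cells derive from S49.1, a mouse T cell lymphoma line of immature type in which glucocorticoids induce apoptosis. Both lines studied carry the gene for resistance to G418 (neomycin) as a stable insertion. S49 (Bcl-2) cells additionally express the proto-oncogene Bcl-2, which blocks apoptosis, and S49 (Neo) cells carry the resistance gene alone. RNA was sequenced in 8 groups of 4 libraries, 32 in all. S49 (Bcl-2) cells were given 250 nM dex for 48 h or 24 h, each with controls without dex of the same time. The same 4 groups were made of S49 (Neo) cells. Each line is represented by 1 stably transfected cell population, so a difference between lines cannot be told apart from other differences between these 2 populations. Whether replicates came from separate cultures is not stated, so the p-values measure the spread between these libraries, which may be technical. S49 (Neo) cells lose viability under dex and S49 (Bcl-2) cells do not, and in such bulk samples fewer cells with a transcript and less of it per cell cannot be told apart.

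Dex is a synthetic glucocorticoid. It binds the glucocorticoid receptor, a transcription factor that then enters the nucleus, raises the expression of some genes by binding DNA directly, and lowers that of others by several routes that include interference with other factors and loss of activating ones. In thymocytes and immature T lymphoma cells the receptor is known for driving apoptosis through transcription.

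The 6 genes have unrelated functions. Stc1 encodes stanniocalcin-1, a secreted glycoprotein first known as a hormone of calcium balance in fish. Cbfa2t3, also called Eto2 or Mtg16, encodes a transcriptional corepressor of blood cells that does not bind DNA itself and is brought there by factors such as E-box binding proteins. Rgl3 encodes an exchange factor of the RalGDS family, which links active Ras to the small GTPase Ral. Ptprk encodes a receptor-type tyrosine phosphatase with an adhesive extracellular part. Necab1 encodes an EF-hand calcium-binding protein known mainly from neurons. Sema7a encodes a semaphorin that is held on the cell surface by a lipid anchor and binds plexin C1 and integrin beta 1.

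All 6 are protein-coding genes of the GENCODE annotation of mm10. Stc1 spans chr14:69029238-69041804 on the plus strand, Cbfa2t3 chr8:122625141-122699109 on the minus strand, and Rgl3 chr9:21968711-21989446 on the minus strand. Ptprk spans chr10:28074820-28597397 on the plus strand, Necab1 chr4:14952245-15149794 on the minus strand, and Sema7a chr9:57940112-57962865 on the plus strand. The exons of Rgl3, Ptprk and Sema7a overlap those of no other gene. A gene on the opposite strand shares 5.46% of the exon bases of Stc1 (Gm41192), 3.52% of those of Cbfa2t3 (Gm10612) and 7.83% of those of Necab1 (Gm11837), and since the counting is not stated to use strand, reads in these bases cannot be assigned to 1 of the 2 genes.

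Promoter sequences, 250 bases before to 50 after a transcription start, were taken from RefSeq (GRCm38.p6) and matched by symbol for 4 of the 6 genes (5 promoters), not for Stc1 and Necab1. They are shown as a description, with E-boxes marked because proteins that bind them can bring Cbfa2t3 to DNA. A part of E-boxes or of Cbfa2t3 in the falls was not tested. Capitals mark E-boxes, the letters CANNTG, found on both strands at once because the motif reads alike on each. All sequences run 5′ to 3′ on the strand of the gene.
Cbfa2t3, chr8:122699060-122699359, minus strand: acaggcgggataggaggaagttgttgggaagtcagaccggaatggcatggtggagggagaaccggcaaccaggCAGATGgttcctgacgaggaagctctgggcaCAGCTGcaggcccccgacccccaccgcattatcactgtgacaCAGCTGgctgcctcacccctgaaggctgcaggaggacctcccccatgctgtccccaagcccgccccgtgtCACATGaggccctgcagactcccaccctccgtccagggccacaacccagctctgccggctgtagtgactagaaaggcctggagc
Rgl3, chr9:21989404-21989703, minus strand: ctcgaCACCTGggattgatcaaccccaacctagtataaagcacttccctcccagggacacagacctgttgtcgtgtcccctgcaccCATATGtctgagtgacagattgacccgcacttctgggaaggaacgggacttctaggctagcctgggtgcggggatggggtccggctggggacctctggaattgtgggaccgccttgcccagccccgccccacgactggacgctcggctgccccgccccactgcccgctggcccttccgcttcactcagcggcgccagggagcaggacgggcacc
Ptprk, chr10:28074570-28074869, plus strand: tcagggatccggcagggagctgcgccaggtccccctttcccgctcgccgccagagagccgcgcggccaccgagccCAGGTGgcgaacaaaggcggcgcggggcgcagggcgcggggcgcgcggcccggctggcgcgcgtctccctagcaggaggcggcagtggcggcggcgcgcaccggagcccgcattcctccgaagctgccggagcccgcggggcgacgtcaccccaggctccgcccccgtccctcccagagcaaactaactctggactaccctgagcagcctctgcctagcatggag
Sema7a, chr9:57939862-57940161, plus strand: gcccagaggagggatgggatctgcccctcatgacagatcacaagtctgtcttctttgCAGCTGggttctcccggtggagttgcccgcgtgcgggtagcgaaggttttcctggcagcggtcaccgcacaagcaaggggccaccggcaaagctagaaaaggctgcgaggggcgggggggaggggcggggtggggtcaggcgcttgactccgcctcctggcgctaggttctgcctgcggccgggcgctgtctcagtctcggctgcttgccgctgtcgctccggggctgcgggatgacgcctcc
The upstream Cbfa2t3 promoter held 4 E-boxes, Rgl3 held 2, and Ptprk, Sema7a and the second Cbfa2t3 promoter (chr8:122678126-122678425) held 1 each. An E-box occurred in 72.3% of all 32851 promoters of this length, so its presence in 5 of 5 is a description with little contrast to the rest. The letters of a glucocorticoid receptor half-site (AGAACA, in 19.0% of all promoters), of an AP-1 site (TGANTCA, 7.81%), of a CRE (TGACGTCA, 1.79%), of a RUNX site (TGTGGT, 16.8%) and of a GATA site (AGATAA, 11.2%) were searched on both strands as well and were not present in these 5 windows. The full palindromic receptor element, which contains the half-site, was found in 0.00913% of all promoters and in none of the 5. GC content was 63.7% and 81.7% in the Cbfa2t3 promoters, 64.7% in Rgl3, 75.0% in Ptprk and 67.3% in Sema7a, against a median of 52.7% over all promoters.

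The values are log2 normalized expression as deposited, and differences are in log2 units. The transform behind them is not stated, so no fold changes are given. The table carries no depth per library, for which the methods of the study give only a range over samples. Of the 24538 genes, 11562 had a mean value of at least 3.46 and were tested, the 6 genes among them, with no value under 5.74 in any library. Bcl2 read 10.48 to 11.45 in S49 (Bcl-2) libraries, against 7.70 to 8.62 in S49 (Neo) libraries. The study stained the introduced Bcl-2 with an antibody to the human protein, while reads were aligned to the mouse genome. How far reads of the introduced gene enter these values was not tested. Of 10 T cell markers 9 passed the filter (Cd5 did not), as did 0 of 5 B cell markers, and the T cell markers summed to 16.42 to 16.97 in every library. Of 6 macrophage and granulocyte markers 2 passed (Lyz2 and Itgam), while Csf1r, Adgre1, Mpo and Elane did not. Of 7 stromal, endothelial and epithelial markers only Pecam1, which some blood cells also express, passed, and it read lower with dex beside the 6 genes. At 48 h that list summed to 8.50 to 8.86 with dex, against 10.30 to 10.43 in controls, in S49 (Bcl-2) cells, and to 8.84 to 8.94 with dex, against 10.40 to 10.64 in controls, in S49 (Neo) cells. At 24 h the sums were 9.07 to 9.38 with dex, against 9.77 to 10.04 in controls, in S49 (Bcl-2) cells, and 9.34 to 9.47 with dex, against 10.41 to 10.54 in controls, in S49 (Neo) cells. The part of Pecam1-expressing cells in the results was not tested. Library 3 of S49 (Bcl-2) cells with dex for 24 h stood apart, with an SD over genes of 0.766 for its difference from the rest of its group, against 0.263 to 0.313 for the other 3 and 0.107 to 0.208 for libraries of the other 7 groups. For the 6 genes, differences and group levels that rest on it are given with and without it.

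The choice took, at each time, the 8 largest falls in S49 (Bcl-2) cells of genes whose dex and control libraries did not overlap, whose mean was at least 6.66 and whose adjusted p was under 0.05. At 48 h the last of the 8 was Sema7a at -3.72 and the first gene outside was H2-T3 at -3.46. At 24 h the last of the 8 was H2-T3 at -3.21 and the first outside was Wtip at -3.18. Stc1 ranked 1 at both times. Rgl3 ranked 7 at 48 h and 4 at 24 h, and Ptprk ranked 4 at 48 h and 7 at 24 h. Necab1 ranked 3 at 48 h and 13 at 24 h, and Sema7a ranked 8 at 48 h and 15 at 24 h. Cbfa2t3 entered through 24 h alone, where it ranked 2, while at 48 h it ranked 1221 of 2964 falls. The choice gave 10 genes, of which Rasgrp1, Ccr4, Ifi202b and H2-T3 are the 4 not described here, so the 6 are not all of its outcome. The S49 (Bcl-2) responses of the 6 genes are therefore described without a test, and tests of the 6 are confined to S49 (Neo) comparisons. The ranking above did not use the S49 (Neo) responses, but the genes were chosen with earlier results of these data known.

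In S49 (Neo) cells all 6 genes fell with dex at both times. Differences at 48 h ran from -3.93 for Ptprk to -0.74 for Cbfa2t3, and at 24 h from -3.02 for Stc1 to -2.12 for Rgl3 (limma, largest adjusted p among the 6 at 48 h, 3.99e-05, and at 24 h, 1.43e-09, n = 4 libraries per group). The share of all tested genes called lower was 28 percent at 48 h and 25.5 percent at 24 h. All 4 dex libraries lay below all 4 controls for 6 of 6 genes at both times, which held for 31.3 percent of all tested genes at 48 h and 33.3 percent at 24 h. The median difference over all tested genes was 0.00 at 48 h and -0.02 at 24 h. The 6 genes were likewise separated in S49 (Bcl-2) cells at both times, which the choice fixed in part. Among all genes of that line, 35.2 percent were called lower and 33.9 percent higher at 48 h, 35.1 percent lower and 32.5 percent higher at 24 h, and 37.3 percent at 48 h and 26.8 percent at 24 h had all dex libraries below all controls. Without library 3 the 24 h values were 37.3 percent lower, 37.6 percent higher and 36.3 percent with all dex libraries below all controls.

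**Figure D1:**
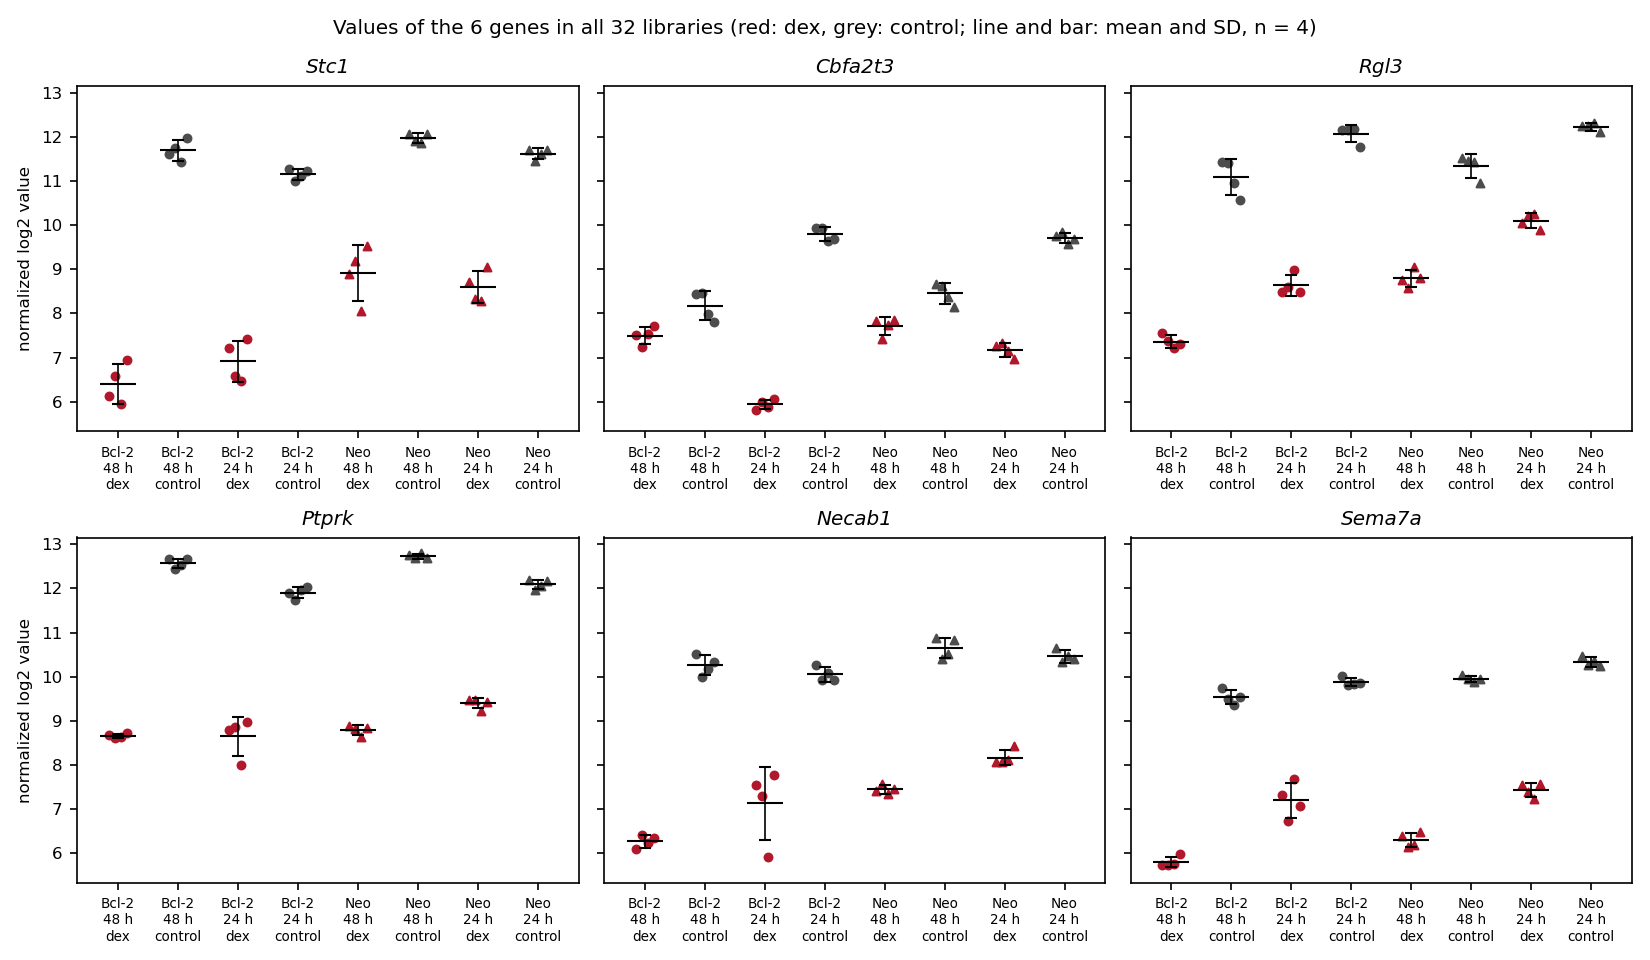
Normalized log2 values (y axis) of the 6 genes in all 32 libraries, by line, time and treatment (x axis), with dex in red left of its control in grey, circles for S49 (Bcl-2) and triangles for S49 (Neo), and the mean and SD of 4 libraries in black. In every panel dex libraries lie below the controls of the same line and time, and for Cbfa2t3 the gap is narrow at 48 h.

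Stc1 had the largest fall of all genes that met the choice in S49 (Bcl-2) cells. At 48 h it read 6.14, 6.58, 5.96 and 6.95 with dex, against 11.60, 11.76, 11.43 and 11.97 in controls, a difference of -5.28. At 24 h the S49 (Bcl-2) values were 7.21, 6.58, 6.47 and 7.41 with dex, against 11.27, 10.99, 11.11 and 11.22 in controls, a difference of -4.23, or -4.08 without library 3. The dex libraries of this gene spread widely, with an SD of 0.45 at 48 h and 0.47 at 24 h, and still lay far below the controls.

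Stc1 kept a higher level under dex in S49 (Neo) cells. At 48 h these cells read 8.90, 9.19, 8.06 and 9.53 with dex, against 12.07, 11.90, 11.87 and 12.07 in controls, a difference of -3.05 (SE 0.24, limma adjusted p = 1.12e-11). At 24 h they read 8.72, 8.34, 8.29 and 9.04 with dex, against 11.69, 11.45, 11.62 and 11.71 in controls, a difference of -3.02 (SE 0.24, limma adjusted p = 2.16e-11). Neither pair of groups overlapped. The response at 48 h minus that at 24 h was -0.03 with a 95% interval of -0.73 to 0.67 (limma adjusted p = 0.97). Changes within that interval could not be told apart from none with these libraries. The S49 (Bcl-2) minus S49 (Neo) response was -2.23 at 48 h and -1.21 at 24 h (-1.06 without library 3), given as a description because the S49 (Bcl-2) response chose the gene. Between the dex libraries of the lines, taken the same way, the difference was -2.51 at 48 h and -1.68 at 24 h (-1.53 without library 3), and between their controls -0.29 and -0.47.

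Cbfa2t3 was the 1 gene of the 6 whose difference shrank with time. S49 (Bcl-2) cells read 7.50, 7.25, 7.54 and 7.71 with dex at 48 h, against 8.45, 8.47, 7.99 and 7.80 in controls, a difference of -0.68. Cbfa2t3 at 24 h in the same line read 5.81, 6.0, 5.89 and 6.06 with dex, against 9.93, 9.94, 9.64 and 9.68 in controls, a difference of -3.86, or -3.84 without library 3. The highest dex library and the lowest control were close at 48 h and far apart at 24 h.

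Both sides of the comparison moved. With dex, S49 (Bcl-2) cells had 1.56 more Cbfa2t3 at 48 h than at 24 h in log2 units (1.54 without library 3), and their controls differed by -1.62 between the same times. In S49 (Neo) cells Cbfa2t3 read 7.84, 7.42, 7.73 and 7.86 with dex at 48 h, against 8.67, 8.63, 8.37 and 8.15 in controls, a difference of -0.74 (SE 0.14, limma adjusted p = 3.99e-05). At 24 h the S49 (Neo) values were 7.27, 7.32, 7.14 and 6.97 with dex, against 9.75, 9.85, 9.58 and 9.68 in controls, a difference of -2.54 (SE 0.14, limma adjusted p = 4.69e-15). Dex and control libraries did not overlap at either time. The response at 48 h minus that at 24 h was 1.79 (SE 0.19, 95% interval 1.4 to 2.2, limma adjusted p = 4.79e-07), which placed Cbfa2t3 at rank 11551 of 11562 genes counted from the most negative. Within dex, S49 (Neo) cells had 0.53 more at 48 h than at 24 h in log2 units. Their controls fell with culture time, the difference of 48 h from 24 h being -1.26 (SE 0.14, limma adjusted p = 1e-07), rank 5 from the most negative of 11562 genes. The S49 (Bcl-2) minus S49 (Neo) response was 0.06 at 48 h and -1.32 at 24 h, or -1.30 at 24 h without library 3.

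**Figure D2:**
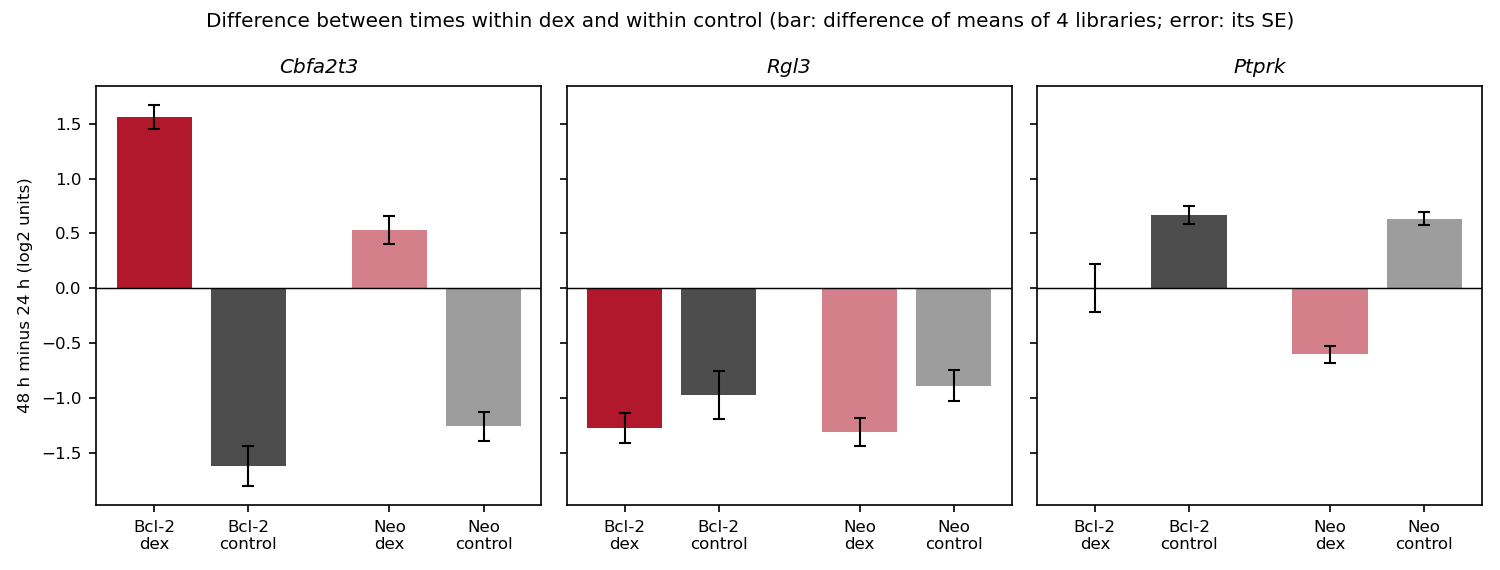
Difference between 48 h and 24 h (y axis, log2 units) of Cbfa2t3, Rgl3 and Ptprk within dex (red) and within control (grey) in each line (x axis), as the difference of the means of 4 libraries with its SE. Cbfa2t3 was higher at 48 h with dex and lower at 48 h in controls, Rgl3 was lower at 48 h in all 4 pairs, and Ptprk was higher at 48 h in the controls of both lines. All libraries are included, library 3 of S49 (Bcl-2) cells with dex for 24 h among them.

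Rgl3 started from one of the highest control levels of the 6 genes and read lower at 48 h than at 24 h with or without dex. Its S49 (Bcl-2) values at 48 h were 7.55, 7.37, 7.21 and 7.31 with dex, against 11.42, 11.40, 10.96 and 10.58 in controls, a difference of -3.73. The 24 h libraries read 8.49, 8.60, 8.98 and 8.48 with dex, against 12.16, 12.15, 12.18 and 11.78 in controls, a difference of -3.43, or -3.54 without library 3. The groups were separated by more than 2 log2 units at each time.

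Rgl3 fell in S49 (Neo) cells as well. At 48 h it read 8.75, 8.58, 9.05 and 8.80 with dex, against 11.53, 11.45, 11.43 and 10.95 in controls, a difference of -2.54 (SE 0.15, limma adjusted p = 3.46e-14). Values at 24 h were 10.05, 10.22, 10.25 and 9.89 with dex, against 12.24, 12.24, 12.31 and 12.10 in controls, a difference of -2.12 (SE 0.15, limma adjusted p = 2.85e-12). No libraries overlapped. The response at 48 h minus that at 24 h was -0.42 (95% interval -0.87 to 0.03, limma adjusted p = 0.194), and it passed the threshold when the 16 S49 (Neo) libraries were fitted alone (adjusted p = 0.0454). Between 48 h and 24 h, S49 (Neo) cells with dex differed by -1.31 and their controls by -0.89 (SE 0.15, limma adjusted p = 3.4e-05 for the controls), and in S49 (Bcl-2) cells these differences were -1.28 with dex (-1.16 without library 3) and -0.97 in controls. The S49 (Bcl-2) minus S49 (Neo) response was -1.19 at 48 h and -1.30 at 24 h, or -1.42 at 24 h without library 3.

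Ptprk had the highest control values of the 6 genes at 48 h, and those controls rose with time in culture. S49 (Bcl-2) libraries at 48 h read 8.67, 8.60, 8.64 and 8.71 with dex, against 12.66, 12.44, 12.53 and 12.65 in controls, a difference of -3.91. Its 24 h values were 8.78, 8.87, 8.0 and 8.96 with dex, against 11.90, 11.74, 11.95 and 12.02 in controls, a difference of -3.25, or -3.03 without library 3, which held the 8.0. The 4 dex libraries at 48 h agree closely, with an SD of 0.05.

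The response of Ptprk in S49 (Neo) cells deepened between the times. At 48 h it read 8.89, 8.83, 8.64 and 8.83 with dex, against 12.74, 12.68, 12.80 and 12.68 in controls, a difference of -3.93 (SE 0.12, limma adjusted p = 1.3e-20) and rank 4 among 11562 genes from the most negative. At 24 h it read 9.48, 9.47, 9.22 and 9.43 with dex, against 12.19, 11.96, 12.05 and 12.16 in controls, a difference of -2.69 (SE 0.12, limma adjusted p = 1.08e-16). The groups did not overlap. The response at 48 h minus that at 24 h was -1.24 (SE 0.17, 95% interval -1.60 to -0.88, limma adjusted p = 1.48e-05). It lay on both sides, since dex libraries differed by -0.60 between 48 h and 24 h and controls rose by 0.63 (SE 0.12, limma adjusted p = 0.000127). The S49 (Bcl-2) minus S49 (Neo) response was 0.01 at 48 h and -0.56 at 24 h, or -0.34 at 24 h without library 3. Between 48 h and 24 h S49 (Bcl-2) cells differed by 0.00 with dex, or by -0.22 without library 3, and by 0.67 in controls.

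Necab1 fell to near 6 in S49 (Bcl-2) cells at 48 h, where it read 6.09, 6.41, 6.23 and 6.35 with dex, against 10.52, 9.99, 10.18 and 10.33 in controls, a difference of -3.98. After 24 h the readings were 7.55, 7.30, 5.92 and 7.76 with dex, against 10.27, 9.92, 10.08 and 9.92 in controls, a difference of -2.92. Library 3 held the 5.92, and without it the difference was -2.51. The lowest control stayed more than 2 log2 units above the highest dex library at both times.

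In S49 (Neo) cells at 48 h Necab1 read 7.41, 7.57, 7.35 and 7.45 with dex, against 10.87, 10.41, 10.52 and 10.82 in controls, a difference of -3.21 (SE 0.23, limma adjusted p = 9.21e-13). At 24 h it read 8.06, 8.07, 8.11 and 8.43 with dex, against 10.66, 10.32, 10.48 and 10.40 in controls, a difference of -2.29 (SE 0.23, limma adjusted p = 1.43e-09). These groups were again apart. The response at 48 h minus that at 24 h was -0.92 (SE 0.32, 95% interval -1.57 to -0.26), close to the threshold (limma adjusted p = 0.0429). The call was lost when any 1 of 13 of the 16 S49 (Neo) libraries was left out (adjusted p 0.0502 to 0.0937), and the adjusted p was 0.000131 without library 3 of S49 (Bcl-2) cells with dex for 24 h, which reads 5.92 and enters the spread shared by all groups of the fit. S49 (Neo) controls differed between 48 h and 24 h by 0.19 (95% interval -0.27 to 0.66, adjusted p = 0.524). The S49 (Bcl-2) minus S49 (Neo) response was -0.77 at 48 h and -0.62 at 24 h, but -0.22 at 24 h without library 3.

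Sema7a held the lowest value of the 6 genes in any library. Its S49 (Bcl-2) readings at 48 h were 5.75, 5.74, 5.76 and 5.99 with dex, against 9.73, 9.49, 9.36 and 9.55 in controls, a difference of -3.72. After 24 h Sema7a read 7.32, 6.74, 7.68 and 7.07 with dex, against 10.02, 9.82, 9.83 and 9.85 in controls, a difference of -2.68, or -2.84 without library 3. The difference between the times was -1.39 with dex (-1.23 without library 3) and -0.35 in controls.

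Sema7a fell in S49 (Neo) cells too. At 48 h it read 6.39, 6.14, 6.19 and 6.49 with dex, against 10.05, 9.94, 9.88 and 9.95 in controls, a difference of -3.65 (SE 0.13, limma adjusted p = 1.29e-19). At 24 h it read 7.54, 7.39, 7.23 and 7.57 with dex, against 10.48, 10.26, 10.36 and 10.23 in controls, a difference of -2.90 (SE 0.13, limma adjusted p = 4.15e-17). No overlap occurred. The response at 48 h minus that at 24 h was -0.76 (SE 0.18, 95% interval -1.13 to -0.39, limma adjusted p = 0.00377). Controls of S49 (Neo) cells fell between the times (-0.38, SE 0.13, limma adjusted p = 0.0163), a call lost without library 1 of the 24 h controls (adjusted p = 0.0577). The S49 (Bcl-2) minus S49 (Neo) response was -0.07 at 48 h and 0.22 at 24 h, or 0.06 at 24 h without library 3.

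**Figure D3:**
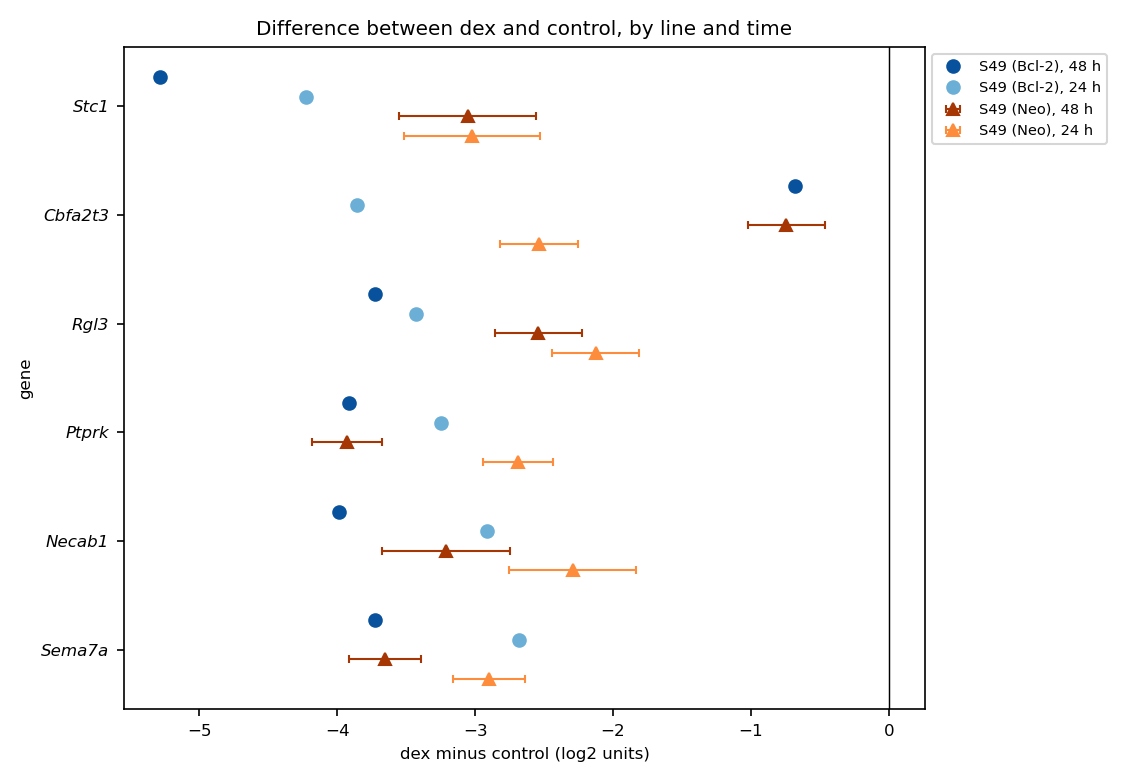
Difference between dex and control (x axis, log2 units) for each of the 6 genes (y axis), with circles for S49 (Bcl-2), which chose the genes and carry no interval, and triangles with 95% intervals for S49 (Neo). Stc1 reaches -5.28 in S49 (Bcl-2) at 48 h, and Cbfa2t3 lies at -0.68 and -0.74 at 48 h in the 2 lines.

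Across the 6 genes the S49 (Neo) response was more negative at 48 h than at 24 h for 3 (Ptprk, Sema7a and, with the losses of the call given above, Necab1) and less negative for 1 (Cbfa2t3) by the test of the difference, while Stc1 and Rgl3 did not pass. Of all tested genes 10.5 percent were called lower and 8.72 percent higher by the same test (1217 and 1008 genes, or 2231 and 2371 without library 3 of S49 (Bcl-2) cells with dex for 24 h). Without dex, between 48 h and 24 h of culture, Cbfa2t3, Rgl3 and Sema7a fell and Ptprk rose in S49 (Neo) controls, against 21.7 percent of all genes called lower and 25.1 percent higher. Every response of the 6 genes at 24 h is measured against controls of 24 h, and at 48 h against controls of 48 h.

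**Figure D4:**
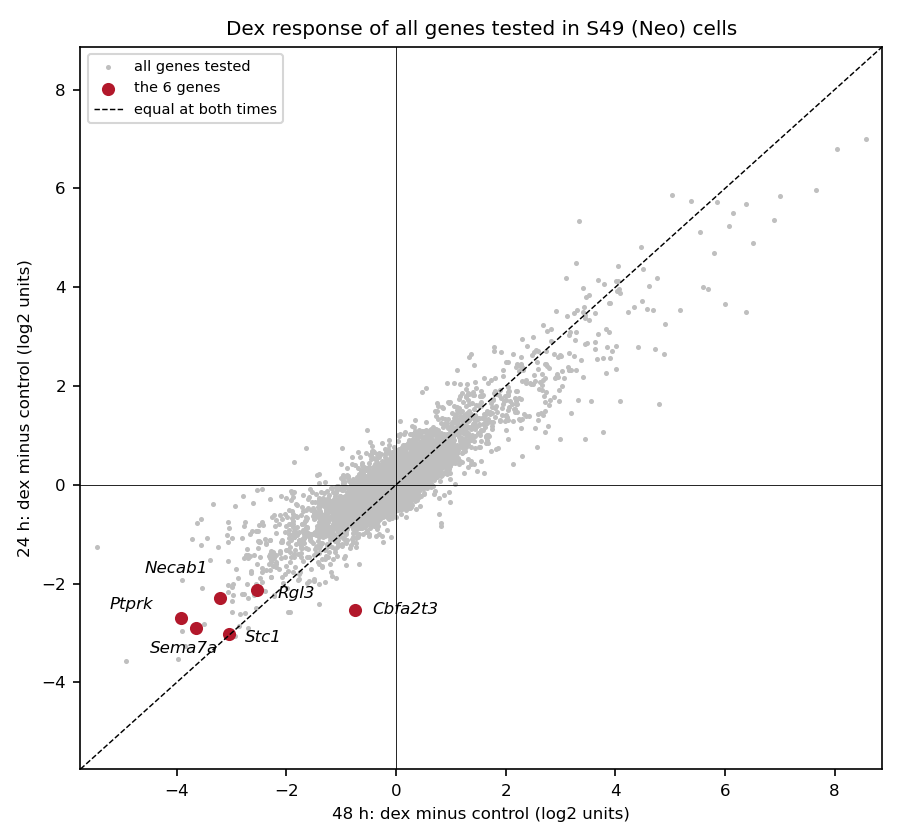
Difference between dex and control in S49 (Neo) cells at 48 h (x axis) and at 24 h (y axis), both in log2 units, for the 11562 genes tested (grey) and the 6 genes (red), with a dashed line where both are equal. Stc1 lies on the line, Ptprk, Necab1 and Sema7a lie on the side of a larger fall at 48 h, and Cbfa2t3 lies on the other side at -0.74 and -2.54.

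Ordered by level, lowest first, the 8 groups ranked differently for each gene. Stc1 was lowest in S49 (Bcl-2) cells with dex at 48 h (6.41 ± 0.45) and 24 h (6.92 ± 0.47, or 7.07 ± 0.44 without library 3), which overlapped, followed by S49 (Neo) cells with dex at 24 h (8.60 ± 0.35) and 48 h (8.92 ± 0.63), which overlapped too, and then the controls, between 11.15 ± 0.12 in S49 (Bcl-2) at 24 h and 11.98 ± 0.11 in S49 (Neo) at 48 h (SD, n = 4 here and below). Its upper 3 control groups overlapped from one to the next. Cbfa2t3 was lowest in S49 (Bcl-2) cells with dex at 24 h (5.94 ± 0.11, or 5.96 ± 0.13 without library 3), apart from all other groups. Above it came 5 groups linked by overlaps of each with the next within them, in the order S49 (Neo) with dex at 24 h (7.18 ± 0.15), S49 (Bcl-2) with dex at 48 h (7.50 ± 0.19), S49 (Neo) with dex at 48 h (7.71 ± 0.20), S49 (Bcl-2) controls at 48 h (8.18 ± 0.33) and S49 (Neo) controls at 48 h (8.45 ± 0.24). The 24 h controls were highest (9.80 ± 0.16 in S49 (Bcl-2) and 9.71 ± 0.11 in S49 (Neo)) and overlapped each other.

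Rgl3 was lowest in S49 (Bcl-2) cells with dex at 48 h (7.36 ± 0.14), and above it S49 (Bcl-2) with dex at 24 h (8.64 ± 0.23, or 8.52 ± 0.07 without library 3) overlapped S49 (Neo) with dex at 48 h (8.79 ± 0.19). S49 (Neo) with dex at 24 h (10.10 ± 0.17) stood alone, and within the 48 h controls and within the 24 h controls the lines overlapped. For Ptprk the 3 lowest groups overlapped in turn, S49 (Bcl-2) with dex at 24 h (8.65 ± 0.44) and 48 h (8.66 ± 0.05) and S49 (Neo) with dex at 48 h (8.80 ± 0.11). Without library 3 S49 (Bcl-2) with dex at 24 h was at 8.87 ± 0.09, above the same cells at 48 h without overlap. For Ptprk the 48 h controls were highest (12.57 ± 0.10 in S49 (Bcl-2) and 12.73 ± 0.06 in S49 (Neo)) and did not overlap. For Necab1 S49 (Bcl-2) with dex at 48 h (6.27 ± 0.14) overlapped the same cells at 24 h (7.13 ± 0.83) through library 3 (7.54 ± 0.23 and no overlap without it), and the 4 control groups overlapped in turn, between 10.05 ± 0.17 and 10.66 ± 0.22. For Sema7a S49 (Bcl-2) with dex at 48 h (5.81 ± 0.12) and S49 (Neo) with dex at 48 h (6.30 ± 0.16) were lowest and did not overlap, and S49 (Neo) controls at 24 h (10.33 ± 0.11) were highest.

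Likeness between profiles was measured as the root mean square (RMS) difference between the 8 group means of 2 genes, each centred on its own mean, in log2 units. The means include the S49 (Bcl-2) groups that chose the 6 genes, so nearness to other large falls there follows in part from the choice. The measure is not scaled for the size of a fall, so a gene with a very large fall has few near matches. All libraries are included, library 3 among them. Among the 6, Necab1 and Sema7a were closest (0.376) and Stc1 and Cbfa2t3 farthest apart (1.38), and Cbfa2t3 was at least 1.03 from each of the other 5. The 3 nearest genes to Rgl3 among 9138 were H2-T3 (0.176), Wtip (0.205) and Phlda1 (0.329). For Ptprk they were Rasgrp1 (0.375), Necab1 (0.406) and Grhl3 (0.481), for Necab1 Phlda1 (0.284), Sema7a (0.376) and Ptprk (0.406), and for Sema7a H2-T3 (0.362), Necab1 (0.376) and Rgl3 (0.467). Stc1 had no near match, with Necab1 at 0.606, Ptprk at 0.688 and Phlda1 at 0.717. Neither had Cbfa2t3, with Mtf2 at 0.553, Klf3 at 0.610 and Timp2 at 0.633. H2-T3 belongs to a multigene family of the major histocompatibility complex, so its reads may be shared with its relatives.

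Relatives and partners of the 6 genes were counted in 6 lists, chosen by function and leaving out the 6. The S49 (Bcl-2) counts were 37 tested list genes (36.6%) lower and 34 (33.7%) higher at 48 h, and 40 (39.6%) lower and 28 (27.7%) higher at 24 h. In S49 (Neo) cells 38 (37.6%) were called lower and 28 (27.7%) higher at 48 h, and 32 (31.7%) lower and 21 (20.8%) higher at 24 h. Over all tested genes, S49 (Neo) cells had 28 percent called lower and 27.3 percent higher at 48 h, and 25.5 percent lower and 25 percent higher at 24 h. S49 (Bcl-2) cells had 35.2 percent lower and 33.9 percent higher at 48 h, and 35.1 percent lower and 32.5 percent higher at 24 h. The median difference over all tested genes lay between -0.042 and -0.002 in these comparisons. The counts and medians of single lists below stand beside these values of all genes. Without library 3 of S49 (Bcl-2) cells with dex for 24 h, the S49 (Neo) counts at 24 h were 40 (39.6%) lower and 32 (31.7%) higher, against 35.1 percent lower and 31.7 percent higher over all genes. Also without it, 47.5% of list genes were lower in S49 (Neo) cells at 48 h, against 35.7% of all genes. In S49 (Bcl-2) cells 46.5% were lower at 48 h against 41.5%, and 39.6% at 24 h against 37.3%. With all libraries the shares lower were closest in S49 (Bcl-2) cells at 48 h, 36.6% against 35.2%. The 4 comparisons share genes and a fit, so they are not independent of each other. Shares called higher showed no fixed order, and the lists were not tested as sets.

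Stc2, the paralog of Stc1, fell in all 4 comparisons. The S49 (Bcl-2) differences were -2.24 at 48 h and -0.82 at 24 h, and the S49 (Neo) ones -1.70 and -0.96 (SE 0.14 each, limma adjusted p at 48 h in S49 (Neo), 4.28e-11). Of the 8 tested genes of its list, which holds calcium and phosphate handling proteins, S49 (Bcl-2) cells had 4 lower and 2 higher at 48 h and 3 lower and 2 higher at 24 h. S49 (Neo) cells had 3 lower and 2 higher at 48 h and 4 lower and 2 higher at 24 h, and the list median there was -0.09 at 48 h and -0.01 at 24 h. Slc20a1, a phosphate transporter, fell (-0.62 at 48 h and -0.58 at 24 h in S49 (Neo) cells), and its paralog Slc20a2 rose by 0.47 and 0.20. Atp2a3, a calcium pump of the endoplasmic reticulum, rose by 0.78 at 48 h in S49 (Bcl-2) cells and fell at 48 h in S49 (Neo) cells (-0.17).

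Of 25 tested genes of the Cbfa2t3 family and its complexes, 14 were lower and 8 higher at 48 h, and 13 lower and 4 higher at 24 h, in S49 (Bcl-2) cells. In S49 (Neo) cells 11 were lower and 6 higher at 48 h and 11 lower and 3 higher at 24 h, and the list median was -0.23 at 48 h and -0.17 at 24 h. Cbfa2t2, the paralog, fell in S49 (Bcl-2) cells (-0.28 at 48 h and -0.43 at 24 h) and in S49 (Neo) cells (-0.41 at each time). The paralog Runx1t1 was below the filter. Gata3, a T cell transcription factor, fell in S49 (Neo) cells (-1.59 at 48 h and -1.47 at 24 h), as did Hdac1, a histone deacetylase (-0.38 and -0.45). Zbtb16, a zinc finger repressor and partner of the family, rose in S49 (Bcl-2) cells by 3.40 at 48 h and 2.04 at 24 h. In S49 (Neo) cells Zbtb16 rose by 3.20 and 1.44. Its mean over all libraries, dex included, was 4.45, near the filter, and its controls lay lower. The size of its rise is therefore uncertain.

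Of 22 tested genes of Ral signalling, 6 were lower and 7 higher at 48 h, and 8 lower and 7 higher at 24 h, in S49 (Bcl-2) cells. The S49 (Neo) counts were 7 lower and 6 higher at 48 h and 3 lower and 4 higher at 24 h, with a list median of -0.10 and 0.04. Rgl2, a paralog of Rgl3, rose by 0.32 at 48 h in S49 (Bcl-2) cells and by 0.29 at 48 h in S49 (Neo) cells (SE 0.07, limma adjusted p = 0.000765), a direction opposite to Rgl3. Rgl1 differed by -0.06 at 48 h and 0.15 at 24 h in S49 (Neo) cells and passed at neither time, and Ralgds was below the filter. Reps2, which binds a Ral effector, rose by 6.38 at 48 h and 3.5 at 24 h in S49 (Neo) cells. Its paralog Reps1 fell (-0.43 and -0.32), and Exoc8, a subunit of the exocyst, rose by 0.76 and 0.32. The mean of Reps2 over all libraries, dex included, was 6.83, and its controls lay lower, nearer the filter. The size of the rise of Reps2 is therefore uncertain.

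Of 11 tested receptor-type tyrosine phosphatases besides Ptprk, 2 were lower and 6 higher at 48 h, and 3 lower and 4 higher at 24 h, in S49 (Bcl-2) cells. The S49 (Neo) counts were 4 lower and 5 higher at 48 h and 3 lower and 5 higher at 24 h, with a list median of 0.20 and 0.05. The closest paralogs Ptprm, Ptprt and Ptpru were below the filter. Ptprb rose by 6.14 at 48 h and 5.51 at 24 h and Ptpre by 1.02 and 0.56 in S49 (Neo) cells. The mean of Ptprb over all libraries, dex included, was 6.85, and its controls lay lower, nearer the filter, so the size of its rise is uncertain. In S49 (Bcl-2) cells Ptprv differed by 0.45 at 48 h and -0.36 at 24 h, and in S49 (Neo) cells by -1.37 and -1.21, and all 4 passed the threshold.

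Of 18 tested EF-hand calcium sensors besides Necab1, 4 were lower and 7 higher at 48 h, and 5 lower and 6 higher at 24 h, in S49 (Bcl-2) cells. The S49 (Neo) counts were 2 lower and 6 higher at 48 h and 1 lower and 6 higher at 24 h, with a list median of -0.03 and 0.18. Necab3, a paralog of Necab1, fell in S49 (Bcl-2) cells (-1.14 at 48 h and -0.46 at 24 h) and in S49 (Neo) cells (-1.35 and -0.89), and Necab2 was below the filter. Kcnip3, Cabp1 and Hpcal1, sensors known mainly from neurons, rose in S49 (Neo) cells, Kcnip3 by 6.5 at 48 h and 4.90 at 24 h, Cabp1 by 2.66 and 2.24, and Hpcal1 by 1.06 and 1.12. The mean of Kcnip3 over all libraries, dex included, was 7.15, and its controls lay lower, nearer the filter, so the size of its rise is uncertain.

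Of 17 tested semaphorins and their receptors besides Sema7a, 7 were lower and 4 higher at 48 h, and 8 lower and 5 higher at 24 h, in S49 (Bcl-2) cells, and the list median was -0.04 and -0.07. Counts in S49 (Neo) cells were 11 lower and 3 higher at 48 h and 10 lower and 1 higher at 24 h, and the list median was -0.56 and -0.41. Over all tested genes of these cells 28 percent were lower and 27.3 percent higher at 48 h, and 25.5 percent and 25 percent at 24 h. The list was not tested as a set. Sema6a fell in S49 (Bcl-2) cells (-2.60 at 48 h and -2.54 at 24 h) and in S49 (Neo) cells (-3.84 and -3.27). Of the receptors of Sema7a, Plxnc1 fell at 48 h (-0.80, SE 0.16, limma adjusted p = 0.000116) and differed by -0.11 at 24 h (adjusted p = 0.618) in S49 (Neo) cells, and Itgb1 fell at both (-0.58 and -0.62). In the same cells Sema4a fell (-0.56 at 48 h and -0.68 at 24 h) and Sema4f fell (-1.50 and -0.57). Sema4d differed there by 0.04 and 0.13 without passing, and Sema3f rose by 2.62 and 2.09. Means over all libraries were near the filter for Sema3f (3.88) and Sema4a (3.94), and Sema3f lay lower in controls. The sizes of the differences of Sema3f and Sema4a are therefore uncertain.

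**Figure D5:**
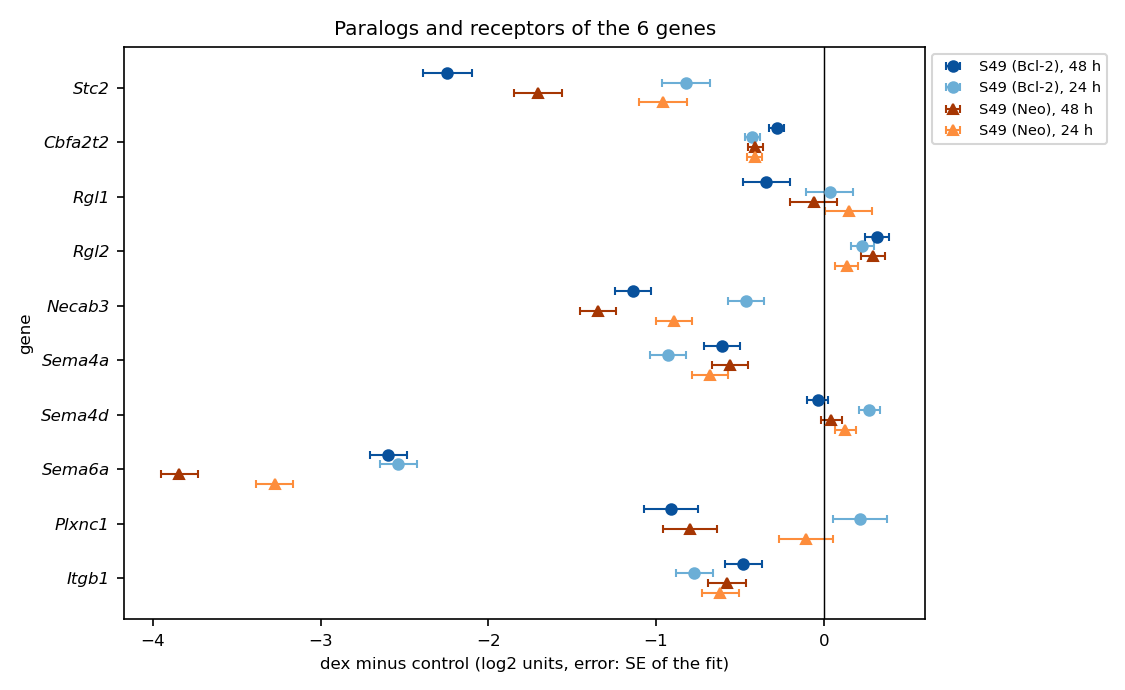
Difference between dex and control (x axis, log2 units) of 10 paralogs, family members and receptors of the 6 genes (y axis), in S49 (Bcl-2) (circles) and S49 (Neo) (triangles) at 48 h and 24 h, with the SE of the fit. Stc2, Necab3 and Sema6a lie left of 0 in all 4 comparisons, and Rgl2 lies right of 0 in all 4.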

How the data were processed

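RNA of S49 (Bcl-2) and S49 (Neo) cells was measured by poly(A) RNA-seq in 32 libraries. The authors aligned the reads to mm10 with STAR, counted them per gene with featureCounts, normalized the counts by DESeq2 and deposited log2 values for 24538 genes and 32 libraries as 1 table. The transform behind these log2 values is not stated, the table carries no depth per library, and values ran from -2.38 to 20.15. No column was without a sample (0), and 0 pairs of libraries were identical. In 26 rows the symbol had become a date, and these were never named. Rows were matched by symbol, and positions and overlaps came from the GENCODE annotation of mm10.

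A mean per group was fitted to all 32 libraries with limma 3.58.1 (R version 4.3.3), its moderated variance being allowed to trend with expression, so S49 (Bcl-2) libraries also enter the spread behind S49 (Neo) tests. Genes with a mean of at least 3.46 (log2 of 10 plus 1) were tested, 11562 in all. Calls use a Benjamini-Hochberg adjusted p under 0.05 over all tested genes, two-sided. Comparisons were dex against control at each time in each line, the S49 (Neo) response at 48 h minus 24 h, and S49 (Neo) controls at 48 h against 24 h. The fit was tested on simulated data. The members and lists were chosen with earlier results of these data known. Beside the 6 genes, the text names for each the 3 genes with the nearest profile (mean of at least 6.66), and of each list the closest paralogs or receptors and up to 3 others with the smallest p at 48 h in S49 (Neo) cells.

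Replicate numbers are shared by the groups. Deviations of same-numbered dex and control libraries correlated at 0.198 to 0.225 over genes in S49 (Bcl-2) cells at 24 h (over 0.1 in every pair, so the numbers pair the libraries there, where the 6 genes are not tested), at 0.079 to 0.325 at 48 h, and in S49 (Neo) cells at 0.053 to 0.476 at 24 h and 0.033 to 0.44 at 48 h. Alternatives were no filter, a mean of at least 6.66, S49 (Neo) libraries only, a replicate block, libraries centred on their medians, 8 added on the linear scale, no trend in the spread, and each library left out.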

Additional observations from a re-analysis of the deposited data

Results flagged for a closer look

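In 48 groups of 4 libraries (6 genes in 8 groups), 5 held a library far from the other 3 by Dixon's 95% critical value. Chance exceeds that value in about 1 in 20 independent groups, but these groups share replicate numbers, and most flagged libraries carry the number 4. Rgl3 read 11.78 in library 4 of the S49 (Bcl-2) 24 h controls (the others 12.15 to 12.18) and 10.95 in library 4 of the S49 (Neo) 48 h controls (the others 11.43 to 11.53). Necab1 read 8.43 in library 4 of S49 (Neo) cells with dex for 24 h (the others 8.06 to 8.11). Sema7a read 5.99 in library 4 of S49 (Bcl-2) cells with dex for 48 h (the others 5.74 to 5.76) and 10.02 in library 1 of the S49 (Bcl-2) 24 h controls (the others 9.82 to 9.85). For Rgl3, library 4 was the lowest control in every group, also at 10.58 in S49 (Bcl-2) at 48 h and 12.10 in S49 (Neo) at 24 h. The flags are therefore not independent of each other, and whether same-numbered libraries share a batch was not tested.

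The dex response of 4 genes differed between the times in S49 (Neo) cells by limma's test of the difference, taken as 48 h minus 24 h: Cbfa2t3 by 1.79, Ptprk by -1.24, Necab1 by -0.92 and Sema7a by -0.76.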

How the results depend on the processing

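In S49 (Neo) cells 6 of 6 genes were called lower with dex at both times in all alternatives run, with none of these falls reversed. With a replicate block they were 6 at 48 h and 6 at 24 h as well, and the block changed 1 call, the response of Necab1 at 48 h minus 24 h (-0.92, adjusted p = 0.0534). Same-numbered libraries correlated best with each other in 3 of 4 pairs at each time in S49 (Neo) cells. Libraries of unlike numbers correlated there at -0.092 at 24 h and -0.079 at 48 h on average. Most numbers thus went together, but not every pair was over 0.1, so no block was used for the main S49 (Neo) calls. The Necab1 call at 48 h minus 24 h is therefore not secure against a pairing of the libraries. The Necab1 call was also lost without the filter on low values (adjusted p = 0.0956). The control comparison had no block fit. In S49 (Bcl-2) cells at 24 h, where the numbers pair the libraries, the block gave 41 related genes lower and 31 higher, and the calls of the related genes named for that comparison did not change.

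All genes called for the response difference in S49 (Neo) cells numbered 1217 lower and 1008 higher. With S49 (Neo) libraries alone they were 2317 lower and 2445 higher. With 1 library left out they ranged between 889 and 2231 lower and between 692 and 2371 higher, the highest counts being without library 3 of S49 (Bcl-2) cells with dex for 24 h. Related genes called higher at 24 h in S49 (Neo) cells ranged between 21 and 32, the highest again without that library. With 8 added on the linear scale the S49 (Bcl-2) difference of Cbfa2t3 at 24 h was -3.69 and that of Sema7a at 48 h -3.55. Stc1's response difference ranged between -0.24 and 0.26 over the alternatives and passed in none. The table carries no depth per library, so precision rests on the spread of 4 libraries.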
